A study of Homo sapiens with 6 samples.

Results

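A set of 7 genes whose transcripts have been reported as cut by the endonuclease of IRE1 was followed in CAL-27 cells after knockdown of XBP-1s: BLOC1S1, SCARA3, HGSNAT, PMP22, COL6A1, SPARC and TGOLN2. They were chosen by name, and every array probe whose RefSeq accession mapped to one of the 7 symbols was kept, which gave 10 probes out of 34127 on the array and out of 27624 that were bright enough to test. SCARA3, HGSNAT and TGOLN2 had more than 1 probe, and the remaining 4 genes had 1 each. All 10 probes were well above background on all 6 arrays and none was saturated. The question asked was whether loss of XBP1s lowered these transcripts.

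CAL-27 is a line from a human squamous cell carcinoma of the tongue. The 3 shXBP-1s samples carried a short hairpin RNA against XBP-1s, the spliced and active form of the transcription factor XBP1, and the 3 shCtrl samples carried a control hairpin. Per the methods, cells were stably transduced, and neither the labels nor the methods mention an inducer of ER stress. The state of the cultures when RNA was taken is not described. Total RNA was hybridised in 1 colour (Cy3), 1 sample per array, and the labels do not say whether the 3 samples of a group came from separate cultures, so p-values measure the spread between these samples, which may be technical. The sequence of the hairpin was not used here, and only 1 hairpin against XBP-1s is named in the labels, so effects of the loss of XBP1 and of this hairpin cannot be told apart.

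IRE1 (gene ERN1) spans the ER membrane. When unfolded proteins accumulate in the lumen it oligomerises, and its cytosolic RNase removes a short intron from XBP1 mRNA, which RTCB then religates to encode XBP1s. The same RNase can cut other mRNAs, many of them bound to the ER and encoding secreted or membrane proteins, and their fragments are degraded by exonucleases; this is called regulated IRE1-dependent decay, or RIDD. In several secretory cell types, cells that lack XBP1 carry more active IRE1 and less of some of these transcripts. None of this was measured here: an array gives the amount of each RNA, so slower synthesis and faster decay cannot be told apart, nor can fewer cells of a type and less RNA per cell in a bulk sample.

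The targeted gene was lower in every knockdown sample. The XBP1 probe, whose place in the transcript was not used here and which cannot be taken to separate the spliced from the unspliced form, gave signals of 2534, 2743 and 2761 in shCtrl and 695.3, 617.1 and 550.8 in shXBP-1s. On the scaled log2 scale used throughout (log2 of the processed signal minus the 75th percentile of its array), XBP1 fell by 2.39 (SE 0.04, adjusted p = 2.81e-07, limma). The 75th percentile of signal was 687.4 to 761.3 on the shCtrl arrays and 792.0 to 983.4 on the shXBP-1s arrays, so raw signals of the knockdown samples ran brighter for most genes, and raw and scaled values are both given below. By the file headers, shCtrl 2 and shCtrl 3 shared 1 scan time and the remaining 4 arrays shared another. These groups of arrays are called slide 1 and slide 2 here, an inference from scan time alone. Over all tested probes 23.3% were called lower and 18.4% higher in shXBP-1s (adjusted p below 0.05), a background against which the members must be read.

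XBP1s binds promoter elements with an ACGTG core. The stretches around such letters are shown for the member promoters that hold them, to be set beside those of XBP1 and DNAJB9, which are known XBP1s targets. The windows came from RefSeq (GRCh38.p14), ran from 250 bases before to 50 bases after each annotated start, and were searched for ACGTG on both strands (so also CACGT). The sequences are written 5′ to 3′ on the gene's strand with the match in capitals. They lie at chr12:55716016-55716061 (plus strand) for BLOC1S1, chr17:15261018-15261046 (minus strand) for PMP22, chr7:108569789-108569842 (plus strand) for DNAJB9 and chr22:28800755-28800783 (minus strand) for XBP1.
BLOC1S1: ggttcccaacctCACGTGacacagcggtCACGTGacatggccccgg
PMP22: gggtggttttagACGTGcgaaccgcttgt
DNAJB9: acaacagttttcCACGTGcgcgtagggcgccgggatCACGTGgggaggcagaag
XBP1: gacacgctcccgCACGTaaccccccgcgg

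The CACGTG palindrome reads the same on both strands, so BLOC1S1 and DNAJB9 each counted 4 overlapping matches, the first at position -18 from the BLOC1S1 start and at -73 from the DNAJB9 start. The PMP22 match, at -214, lay in the last of 3 annotated promoter windows, and neither of the others held one. The second BLOC1S1 window and the windows of SPARC and TGOLN2 held none. Among the other XBP1s targets searched, HERPUD1 and DNAJC3 held a match, whereas HSPA5, EDEM1, SDF2L1, MANF and the second XBP1 window held none. Of all 35116 promoter windows 21.4% held ACGTG. COL6A1 was not in the table, and the windows of SCARA3 and HGSNAT were not read. A match of letters is a description and does not show binding.

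The 7 transcripts did not move together after the knockdown. Of the 10 probes 6 were called lower (60%, against 23.3% of all tested probes), 2 were called higher (against 18.4%) and 2 were not called. COL6A1 and SPARC, which encode secreted matrix proteins, and TGOLN2, a resident of the trans-Golgi network, fell the most. SCARA3 and BLOC1S1 fell by less, PMP22 was not called, and HGSNAT rose. With each gene read by its brightest probe, 5 of the 7 were called lower and 1 higher (27.5% and 18.9% of all 16821 genes), with a median log2 difference of -0.44 against -0.04 for all genes. Only COL6A1 also passed a 2-fold limit, as 2.61% of all tested probes did downward, and no member passed it upward (2.29% of all tested probes). Since the members are 7 named genes and not a sample, no test was made over them together.

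**Figure D1:**
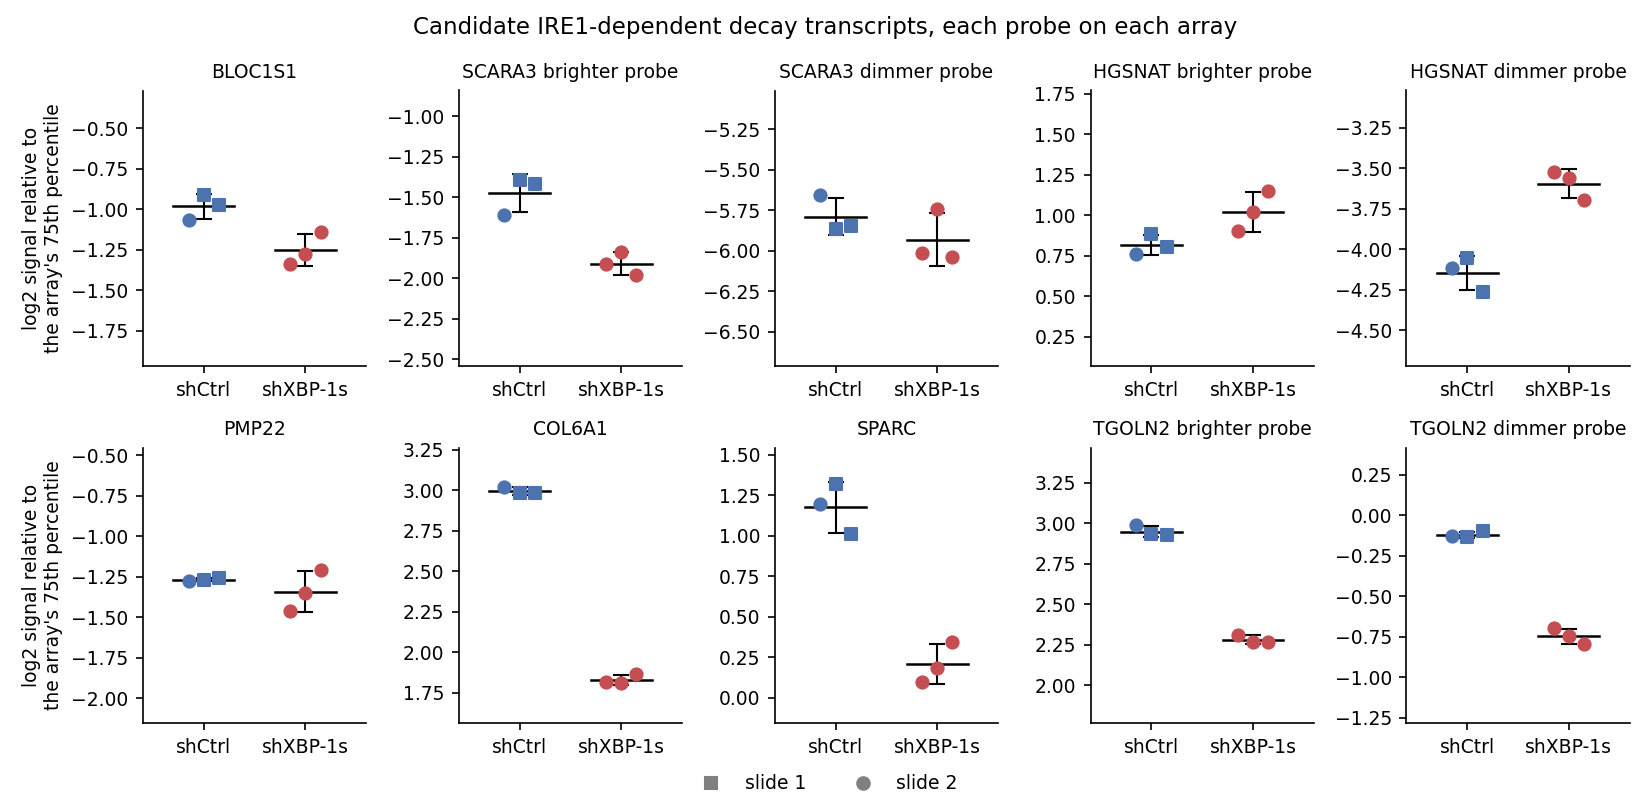
Scaled log2 signal (log2 processed signal minus the 75th percentile of the array) of each of the 10 member probes on each of the 6 arrays, by group, with horizontal bars at group means. The groups stand apart for COL6A1, SPARC, both TGOLN2 probes, the brighter SCARA3 probe, BLOC1S1 and both HGSNAT probes, and overlap for PMP22 and the dimmer SCARA3 probe.

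COL6A1 encodes the alpha-1 chain of collagen VI, a microfibrillar collagen that passes through the ER to the matrix. Its processed signal was 5578, 6028 and 5963 in the shCtrl samples and 3461, 3131 and 2881 in the shXBP-1s samples. All 3 knockdown values lay below all 3 controls, before scaling as well as after. The scaled value went from 3.0 ± 0.02 to 1.83 ± 0.03 (SD, n = 3 each), a difference of -1.17 on the log2 scale (SE 0.04, 95% interval -1.26 to -1.07, adjusted p = 1.67e-06, limma), so that the signal fell by 55.5%. Only 1.67% of all tested probes fell as far.

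SPARC (osteonectin) is a secreted glycoprotein that binds collagen. Its signal was 1578, 1902 and 1520 in shCtrl and 1052, 1018 and 1004 in shXBP-1s. The groups did not overlap, and the control values were more scattered than those of COL6A1. The scaled value went from 1.18 ± 0.16 to 0.21 ± 0.12 (SD, n = 3 each), which fell by 48.9% (log2 difference -0.97, SE 0.09, adjusted p = 9.64e-05, limma). The 95% interval, -1.18 to -0.75, overlapped that of COL6A1, and the difference between COL6A1 and SPARC within each array (1.66 to 1.97 in shCtrl, 1.52 to 1.72 in shXBP-1s) overlapped between groups (exact permutation p = 0.2, adjusted over the 10 pairs compared p = 0.222).

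TGOLN2 encodes TGN46, a membrane protein that cycles between the trans-Golgi network and the cell surface. Its brighter probe read 5451, 5821 and 5745 in shCtrl and 4887, 4301 and 3821 in shXBP-1s, and its dimmer probe 627.7, 694.2 and 704.8 against 605.6, 532.5 and 456.5. Both probes were lower in all 3 knockdown samples. The brighter probe fell by 37.0% (log2 difference -0.67, SE 0.04, adjusted p = 1.33e-05, limma) and the dimmer fell by 35.2% (-0.63, SE 0.05, adjusted p = 2.95e-05). Within each array the probes stood 3.03 to 3.12 apart in shCtrl and 3.01 to 3.07 apart in shXBP-1s, so the changes read by the probes differed by -0.04 (exact permutation p = 0.2, adjusted over 10 pairs p = 0.222).

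SCARA3 is a scavenger receptor of the class A family found in the ER and Golgi, linked to protection from oxidative stress. The brighter of its 2 probes read 225.3, 289.8 and 282.0 in shCtrl and 260.9, 250.2 and 200.9 in shXBP-1s. These raw values overlapped, and only after scaling to each array did the groups separate, at -1.47 ± 0.12 against -1.91 ± 0.07 (SD, n = 3 each). The scaled signal fell by 26.1% (log2 difference -0.44, SE 0.07, adjusted p = 0.00212, limma). Without scaling between arrays the difference was -0.16 (adjusted p = 0.382), and with normexp background correction it was -0.50 (adjusted p = 0.0559). With normexp the median of all tested probes was -0.41, and relative to it this probe stood at -0.09.

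The dimmer SCARA3 probe, annotated to another transcript of the gene, gave only 13.1 to 13.6 in shCtrl and 12.1 to 16.7 in shXBP-1s. Its groups overlapped, with a log2 difference of -0.14 (95% interval -0.50 to 0.21, adjusted p = 0.499, limma). This interval holds the change of the brighter probe, and the difference between the probes within arrays overlapped between groups (exact permutation p = 0.3), so a change as large as that of the brighter probe is neither shown nor excluded for the dimmer one.

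BLOC1S1, a subunit shared by the BLOC-1 and BORC complexes that govern endosome sorting and lysosome position, is the transcript most often used as a readout of RIDD. Its signal was 328.6, 404.7 and 385.3 in shCtrl and 389.8, 369.4 and 358.9 in shXBP-1s, with raw means of 372.9 and 372.7. The raw groups thus overlapped, and the difference arose from scaling, which placed shCtrl at -0.98 ± 0.08 and shXBP-1s at -1.25 ± 0.10 (SD, n = 3 each). The scaled signal fell by 17.0% (log2 difference -0.27, SE 0.07, 95% interval -0.43 to -0.11, adjusted p = 0.0151, limma), and 23.5% of all tested probes fell as far. The call was lost with normexp background correction (-0.31, adjusted p = 0.172), by the per-probe test that the methods name (adjusted p = 0.0588), with a slide block (-0.19, adjusted p = 0.162), within slide 2 (-0.19, adjusted p = 0.197, with 1 shCtrl array), without shCtrl 2 (-0.23, adjusted p = 0.0511) and without shXBP-1s 2 (-0.26, adjusted p = 0.0630). Without scaling the difference was 0.0041 (adjusted p = 0.983). With normexp the median of all tested probes was -0.41, and relative to it BLOC1S1 stood at 0.10. A readthrough gene, BLOC1S1-RDH5, overlaps it in RefSeq, and a probe named for BLOC1S1 may count both.

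PMP22 is a tetraspan membrane protein of peripheral myelin and epithelial junctions that folds inefficiently in the ER. Its 10 spots averaged 283.3, 316.1 and 316.3 in shCtrl and 357.2, 350.2 and 342.4 in shXBP-1s. Raw values were higher in the knockdown samples and scaled values overlapped, at -1.27 ± 0.01 against -1.34 ± 0.13 (SD, n = 3 each). The log2 difference of -0.07 (95% interval -0.23 to 0.09, adjusted p = 0.437, limma) leaves room for a fall no larger than that of BLOC1S1. Without scaling it was 0.20.

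HGSNAT, the lysosomal membrane enzyme that acetylates heparan sulfate so that it can be broken down, moved the other way. Its brighter probe, present as 10 spots, read 1165, 1404 and 1320 in shCtrl and 1837, 1810.5 and 1754 in shXBP-1s, and its dimmer probe 39.6, 45.7 and 39.3 against 85.5, 75.8 and 61.0. All knockdown values lay above all controls, raw and scaled. The dimmer probe rose by 46.5% (log2 difference 0.55, SE 0.09, adjusted p = 0.00201, limma) and the brighter by 15.3% (0.21, SE 0.07, adjusted p = 0.0450). The distance between the probes was 4.88 to 5.07 in shCtrl and 4.43 to 4.85 in shXBP-1s (exact permutation p = 0.1, the smallest that 3 against 3 arrays allow, adjusted over 10 pairs p = 0.143). The brighter probe's call was lost when any single array other than shXBP-1s 1 was left out (0.14 to 0.24), with a slide block (0.26, adjusted p = 0.0809), within slide 2 (0.26, adjusted p = 0.108), with no filter on dim probes (adjusted p = 0.0588), without limma's trend (adjusted p = 0.0875) and by the per-probe test that the methods name (adjusted p = 0.132). With normexp background correction the dimmer probe's difference was -0.34 (adjusted p = 0.588). The median of all tested probes was then -0.41, and relative to it the dimmer probe stood at 0.08.

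**Figure D2:**
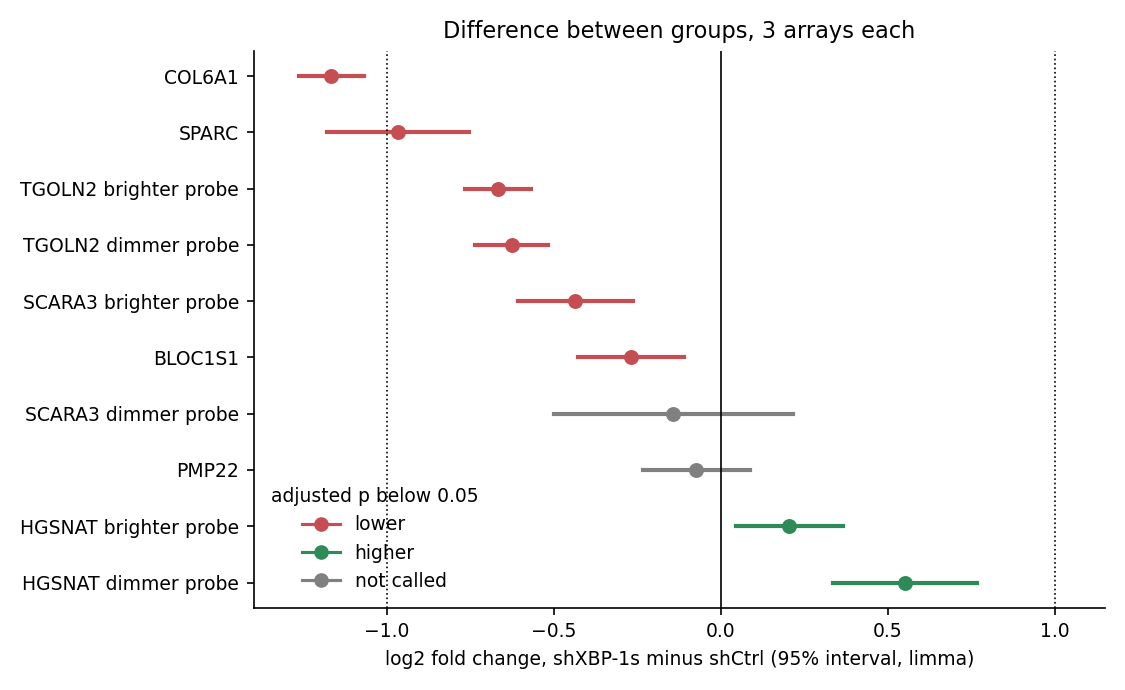
Difference between shXBP-1s and shCtrl (log2, 3 arrays each) for the 10 member probes, with 95% intervals from limma and dotted lines at a 2-fold change. The intervals of COL6A1, SPARC and TGOLN2 lie wholly below -0.50, those of PMP22 and the dimmer SCARA3 probe include 0, and both HGSNAT probes lie above 0.

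The spread among members was then measured within arrays, where scaling cancels, by setting each member's brighter probe against that of BLOC1S1. COL6A1 stood 3.90 to 4.09 above BLOC1S1 in shCtrl and 3.0 to 3.15 above it in shXBP-1s, a difference of -0.90. SPARC (-0.70) and TGOLN2 (-0.40) also fell relative to BLOC1S1 with no overlap between groups, and SCARA3 did so by less (-0.17). HGSNAT (0.47) and PMP22 (0.19) rose relative to it, again with no overlap. In all, 7 of the 10 pairs compared did not overlap, each with the smallest exact permutation p that 6 arrays allow (0.1, adjusted p = 0.143). Most of these pairs share the BLOC1S1 probe and are not separate observations. The share over all pairs of probes was not computed, and among single tested probes 28.5% were lower and 23.9% higher without overlap. The order of changes, from COL6A1 through SPARC, TGOLN2 and SCARA3 to BLOC1S1, PMP22 and HGSNAT, is thus a description for these arrays. The neighbours COL6A1 and SPARC did not differ beyond their spread. Probe levels of different genes depend on the probe and do not rank the transcripts by abundance.

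**Figure D3:**
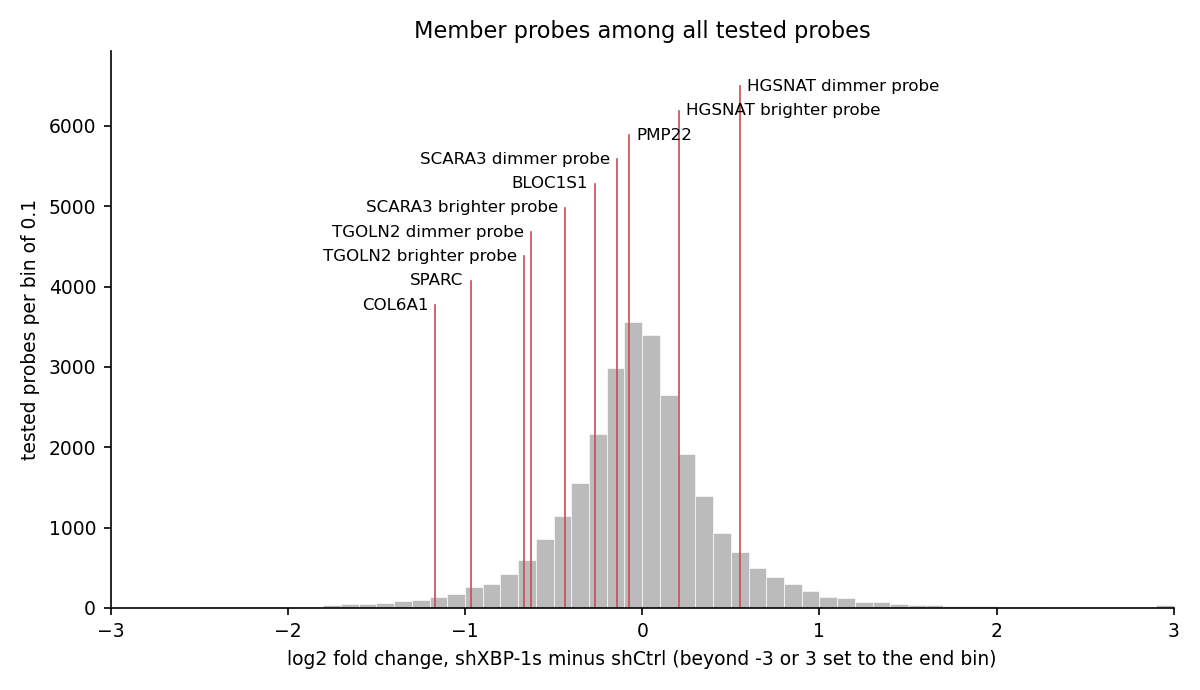
Distribution of log2 differences (shXBP-1s minus shCtrl) over all 27624 tested probes, with the 10 member probes marked. COL6A1 (-1.17) and SPARC (-0.97) lie in the lower tail, where 1.67% and 2.92% of probes lie as low, and BLOC1S1 (-0.27) and the brighter HGSNAT probe (0.21) lie among the bulk of probes.

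The place of each member in the distribution of all probes gave the same picture. As many as 2.92% of tested probes fell as far as SPARC, 6.85% as far as the brighter TGOLN2 probe and 14% as far as the brighter SCARA3 probe. As many as 8.6% rose as far as the dimmer HGSNAT probe and 24.9% as far as the brighter one. In 8 of the 10 probes the groups did not overlap after scaling, 6 of them lower and 2 higher, as was so for 28.5% and 23.9% of all tested probes.

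The calls of COL6A1, SPARC and both TGOLN2 probes held under each of the 18 alternative settings run at the same threshold (the 2-fold limit aside, which COL6A1 alone passed), among them no scaling between arrays, where the median of all probes shifts to 0.25. There COL6A1 was at -0.89, SPARC at -0.69 and the TGOLN2 probes at -0.39 and -0.35. With normexp background correction the median of all tested probes was -0.41. Relative to that median COL6A1 stood at -0.63, SPARC at -0.38 and the TGOLN2 probes at only -0.09 and -0.11.

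**Figure D4:**
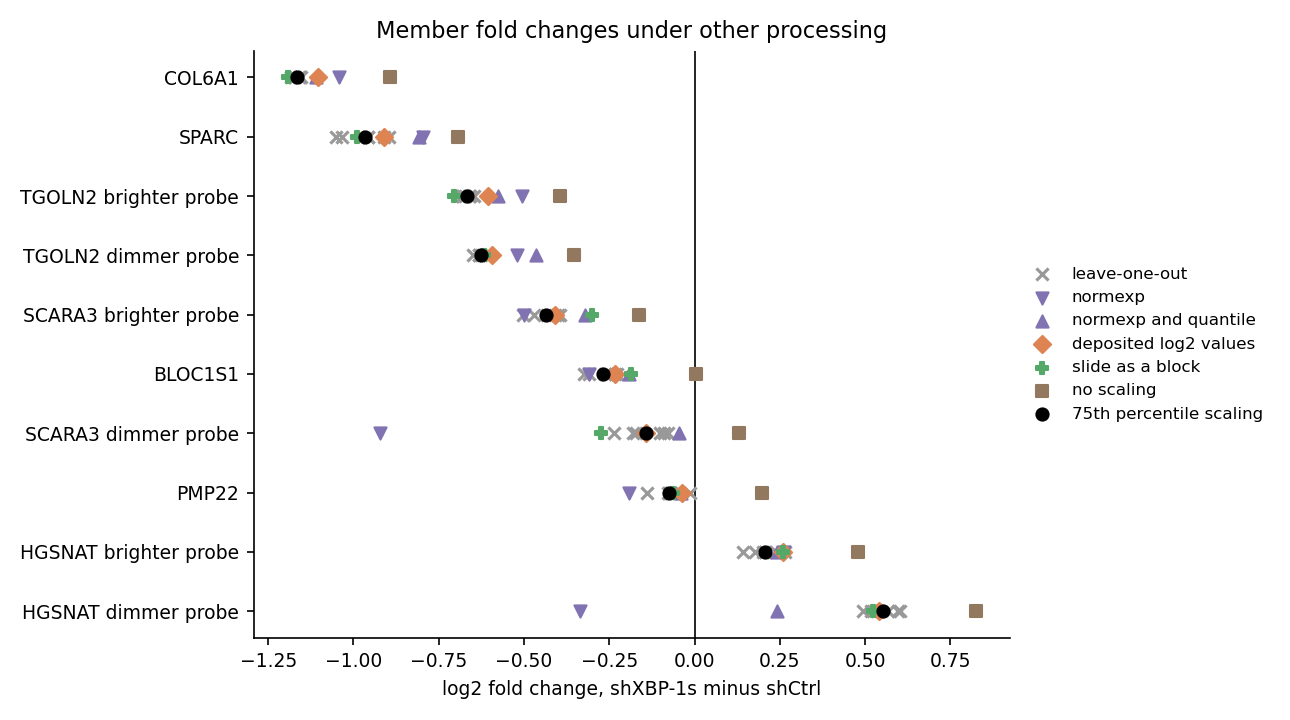
Log2 difference of each member probe (shXBP-1s minus shCtrl) under the main setting and each alternative way of processing the arrays. COL6A1, SPARC and both TGOLN2 probes stay below 0 throughout, whereas BLOC1S1, PMP22 and the dimmer SCARA3 probe lie above 0 without scaling between arrays and the dimmer HGSNAT probe lies below 0 with normexp background correction. The median of all tested probes was 0.25 without scaling and -0.41 with normexp.

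Genes whose scaled values followed those of a member most closely over the 6 arrays were named by Pearson's r, which here is carried mostly by the difference between the groups and so is given as a description. COL6A1 was closest to PIM3, a serine/threonine kinase (r = 1.00, log2 difference -1.38), CXXC4 (-0.80) and PRR5L (-0.75). TGOLN2 was closest to the kinase MAP3K8 (-0.78), the interferon-induced TRIM22 (-1.53) and the polyadenylation factor NUDT21 (-2.0), and SPARC to the ubiquitin-conjugating enzyme UBE2T (-0.40), METTL4 (-0.69) and LHX1 (-0.48). For the members that changed less, BLOC1S1 was closest to the mitochondrial fusion gene MFN2 (-0.16), MNAT1 (-0.20) and CACFD1 (-0.27), and SCARA3 to IMMP1L (-0.31), CFAP58 (-0.46) and MARCHF9 (-0.37). HGSNAT was closest to DNAJC2 (0.19), AP1S1 (0.36) and FERRY3 (0.22), and PMP22 to CPLANE2 (-0.08), LRATD2 (-0.10) and RPS6 (-0.07), at r = 0.988 or more in all 21 cases.

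The enzyme and its own pathway came next. ERN1, which encodes IRE1 itself, was dim, at 14.7 to 16.5 in shCtrl and 17.9 to 26.6 in shXBP-1s, and its log2 difference of 0.20 was not called (SE 0.13, adjusted p = 0.264, limma). The RNA of ERN1 says nothing of the phosphorylation or activity of the protein. Of 19 genes of IRE1 signalling and its regulators, 9 were called lower, 1 higher and 9 were not called (4 lower and 5 higher without scaling between arrays). Over all genes 27.5% were lower and 18.9% higher, and the median was -0.10 against -0.04 for all genes. The list includes XBP1, which the hairpin targets, so its fall was set by the design. Some of its genes, DNAJB9 and PDIA6 among them, are also counted with the XBP1s targets below. Besides XBP1, the falls of at least 2-fold were those of DNAJB9 (-1.14), an ER co-chaperone that represses IRE1, and HSPA5 (-1.05), the chaperone BiP that binds its lumenal domain. SEL1L, part of the ERAD complex that degrades IRE1, fell by 0.73, the phosphatase PTPN1 fell by 0.39, RPAP2 fell by 0.32, TMBIM6 fell by 0.23 and MAP3K5 fell by 0.18. PDIA6, a disulfide isomerase that acts on IRE1, rose by 0.18, and the ligase RTCB stood at 0.12, not called.

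The XBP1s targets of the secretory pathway did not fall together. Of 25 such genes 8 were called lower, 8 higher and 9 not, with a median of 0.09. The lower share was near the 27.5% of all genes and the higher share above 18.9%. XBP1 and HSPA5 (-1.05), named as targets above, both fell but were counted with IRE1 signalling and not in this list. DNAJB9 (-1.14), SEC24D (-0.43) and SSR3 (-0.37) fell, whereas DNAJC3, the co-chaperone p58IPK, rose by 1.18, the signal peptidase subunit SPCS3 by 0.75 and the signal recognition receptor subunit SRPRB by 0.33. EDEM1, an ERAD lectin, was at 0.17 and not called. Without scaling between arrays 2 of the list were lower and 14 higher. In the PERK and ATF4 arm of the same stress response 3 of 12 genes were called lower and 3 higher (1 and 6 without scaling), with a median of 0.03. CEBPB (-0.73) and PSAT1 (-0.38) fell and PPP1R15A (0.45), TRIB3 (0.42) and VEGFA (0.38) rose, while ATF4 (0.02) and DDIT3 (0.04), which encodes CHOP, were not called.

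A further 8 transcripts reported as IRE1 substrates in other work were tested and set beside the members. Of the 8, 3 were called lower and none higher (27.5% and 18.9% of all genes), with a median of -0.19 against -0.44 for the 7 members. CD59, a GPI-anchored inhibitor of complement, read 301.6, 330.4 and 329.3 in shCtrl and 210.1, 189.5 and 180.4 in shXBP-1s. PDGFRB, the PDGF receptor beta, read 472.4, 598.4 and 573.6 against 319.3, 283.2 and 222.3. Both stood apart between the groups in raw signal, with log2 differences of -1.0 (SE 0.05, adjusted p = 6.26e-06) and -1.28 (SE 0.08, adjusted p = 9.93e-06, limma), and the integrin beta-2 chain ITGB2 followed at -0.84. Not called were the death receptor TNFRSF10B (-0.17, adjusted p = 0.0696), the triglyceride synthase DGAT2 (-0.22, adjusted p = 0.107), the cargo receptor ERGIC3 (0.26, adjusted p = 0.143), the clock repressor PER1 (0.14, adjusted p = 0.168) and TAPBP, the MHC class I chaperone tapasin (-0.03, adjusted p = 0.692), none of whose 3 probes was called.

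**Figure D5:**
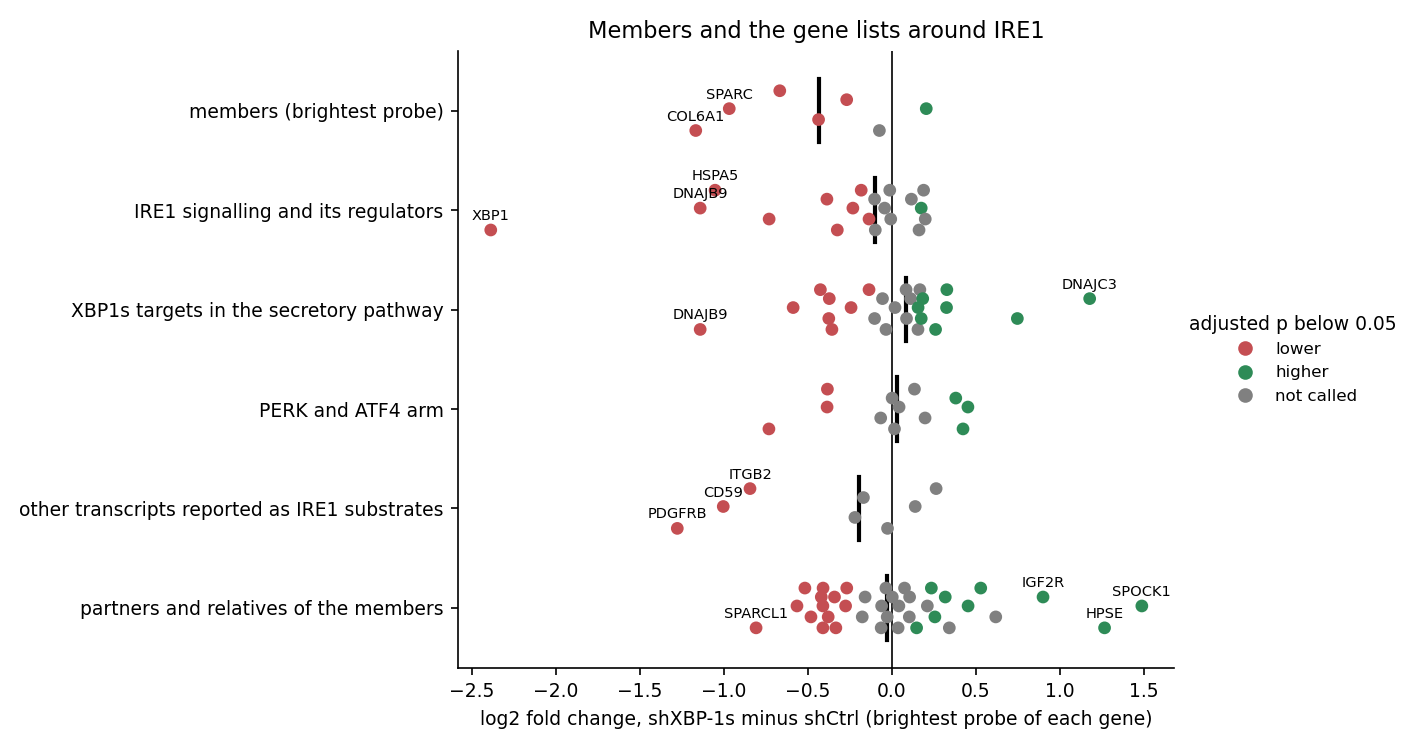
Log2 difference (shXBP-1s minus shCtrl, brightest probe per gene) for the 7 members and for the 5 gene lists around IRE1, with vertical bars at list medians and colours for the call at adjusted p below 0.05. The members' median is -0.44, the other reported substrates' is -0.19 and the XBP1s targets' is 0.09.

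The partners and relatives of the members moved in both directions, 13 of 37 tested genes lower and 9 higher (1 and 15 without scaling between arrays). Both shares were somewhat above the 27.5% and 18.9% of all genes, with a median of -0.03. Among the collagen VI chains, the COL6A2 partner of COL6A1 was dim: its brighter probe stood at -0.16 (adjusted p = 0.196) and its dimmer probe at -0.47 (adjusted p = 0.0297, limma), and COL6A3 was not well above background, so a fall as large as that of COL6A1 was seen for COL6A1 alone of the 2 chains tested. In the SPARC family SPARCL1 fell by 0.81, FSTL1 by 0.56 and SMOC2 by 0.52, while SPOCK1 rose by 1.49. Among BLOC1S1's partners in BLOC-1 and BORC the calls were split: BORCS7 (-0.42), BORCS6 (-0.41), KXD1 (-0.41), DTNBP1 (-0.34), SNAPIN (-0.28) and BLOC1S4 (-0.27) were lower and BORCS5 (0.53), BLOC1S3 (0.24) and BLOC1S2 (0.15) higher. The lysosomal enzymes that share heparan sulfate as a substrate with HGSNAT were also split, with HPSE (1.27), IDS (0.45) and NAGLU (0.32) higher and GUSB (-0.38) lower. The PMP22 relative EMP2 fell by 0.41, and IGF2R, which carries enzymes from the trans-Golgi network to lysosomes, rose by 0.90.

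Markers of cell types moved with the comparison. Their counts stand beside 27.5% of all genes called lower and 18.9% higher, and 2.29% of all tested probes at least 2-fold higher. All 12 squamous epithelial markers were tested and none was lower, 9 were higher, 6 of them at least 2-fold (KRT6A by 4.28 on the log2 scale). Their summed signal was 75781 to 81286 in shCtrl and 133987 to 141461 in shXBP-1s. All sums given here are of raw signal, which ran brighter on the shXBP-1s arrays for most genes. Most of the squamous sum came from SFN, CDH1 and EPCAM, of which CDH1 and EPCAM were not called. Of 11 fibroblast markers 8 could be tested, with COL3A1, POSTN and THY1 not above background, of which 4 that were well above background on all 6 arrays were higher (LUM by 1.94, FAP by 1.76, COL5A1 by 1.56, DCN by 1.43) and 2 lower (PDGFRB and COL1A1, the latter at -0.63). PDGFRA was also called higher, but was well above background on 1 of 3 shCtrl arrays and passed the filter only through shXBP-1s, so it is not counted with them. Their summed signal was 2121 to 2399 in shCtrl and 5778 to 6321 in shXBP-1s, most of it COL5A1 (1443 to 1604 against 5206 to 5594), so the matrix genes COL6A1 and SPARC fell in samples where several other genes of that kind rose. Among the 4 leukocyte markers tested CD14 (-0.84) was lower, and no probe was matched to LYZ; their summed signal was 3016 to 4769.9 in shCtrl and 2417 to 3209 in shXBP-1s, most of it CD14. The 4 endothelial markers gave no call, with sums of 163.9 to 189.2 in shCtrl and 205.7 to 272.6 in shXBP-1s. The part of these shifts in the members' changes was not tested.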

How the data were processed

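RNA from 6 CAL-27 samples (3 shCtrl, 3 shXBP-1s) was measured on Agilent whole human genome arrays, scanned and extracted with Agilent Feature Extraction 11.0.1.1 per the file headers; the labelling text describes a NimbleGen procedure, and which was used is not settled by the sources. The submitters' processing notes name RMA with no role. The deposited scanner files hold intensity, background-subtracted by the authors' software (gProcessedSignal), and a second deposited table holds the authors' log2 values, whose method is not given in the sources used here, with the same median on every array, and was used as an alternative.

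Control spots and flagged outlier spots were left out, spots of a probe were averaged, and log2 of the intensity minus each array's 75th percentile was taken. Of 34127 probes, 27624 were tested, each well above background on every array of shCtrl, of shXBP-1s or of both, by limma 3.58.1 in R 4.3.3 (lmFit, eBayes with trend), adjusted by Benjamini-Hochberg over all of them. Genes were named from RefSeq (GRCh38.p14) through the probe's accession, and lists used each gene's brightest probe. Values within arrays were compared by an exact permutation test (2-sided). Array number, 3 a group, limits the precision.

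Named were all probes of the members, 13 further genes of the pathway whatever their values, up to 5 further genes of each list with the smallest p, and the 3 genes most alike to each member; ATF4, DDIT3, the partners of BLOC1S1 and the other relatives beyond these were added to complete their groups, after their values were seen. The members and lists were chosen with earlier results of these data known. The alternatives were other background corrections, normalizations, filters and tests, a replicate or slide block, a 2-fold limit, and leaving out each array. No scaling between arrays and slide 2 alone were added after seeing the data. A few listed genes are not reported here by name.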

Additional observations from a re-analysis of the deposited data

How the results depend on the processing

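Calls of COL6A1, SPARC and both TGOLN2 probes held under every alternative run on single probes other than the 2-fold limit, which COL6A1 alone passed; for other results the cause was not tested. Over all probes 6423 were lower and 5093 higher, against 1896 and 9294 without scaling and 2448 and 2059 with normexp. The median difference of all tested probes was 0.25 without scaling and -0.41 with normexp, and values below are not corrected for it. Lists are taken in the order IRE1 signalling, XBP1s targets, PERK arm, other substrates and partners. Without scaling, BLOC1S1 was at 0.0041, PMP22 at 0.20 and the SCARA3 probes at -0.16 and 0.13, and the lists had 4, 2, 1, 3 and 1 genes lower and 5, 14, 6, 2 and 15 higher. With normexp, BLOC1S1 was at -0.31, the brighter SCARA3 probe at -0.50 and the dimmer HGSNAT probe at -0.34, none of them called, 1 member probe was higher, 5 IRE1, 4 XBP1s and 7 partner genes were lower, and 2 IRE1, 1 other substrate and 5 partner genes higher. Under quantile normalization, with or without normexp, the deposited values or the mean over probes, 2 IRE1 genes were higher. With no filter, without the trend and by the per-probe t-test, 1 member probe and 0 IRE1 genes were higher. The brighter HGSNAT probe was at 0.21 and not called in each and, by the t-test, BLOC1S1 was at -0.27 and not called. With a slide block, where shCtrl 1 alone stands for the controls, and with slide 2 only, 1 member probe and 1 other substrate were higher, BLOC1S1 was at -0.19 and the brighter HGSNAT probe at 0.26, neither called, and 5 and 4 XBP1s targets were lower, with 5 higher in the latter. At 2-fold, 1 member probe was lower and 0 higher, with 3, 1, 0, 2 and 0 list genes lower and 0, 1, 0, 0 and 2 higher. Leaving out 1 array gave 5 to 6 member probes lower and 1 to 2 higher, 6 to 8 IRE1 genes lower and 0 to 1 higher, 5 to 7 XBP1s targets higher, 0 to 1 other substrates higher, BLOC1S1 at -0.32 to -0.23 and the brighter HGSNAT probe at 0.14 to 0.27. Same-numbered samples did not pair (correlations of deviations -0.02, 0.12 and -0.12, and 2 of 6 samples closest to their own number). With a replicate block 6 member probes were lower and 2 higher, 1 other substrate was higher, and 6113 probes were lower and 5003 higher over all. Dim probes (ERN1, COL6A2, the dimmer SCARA3 probe, and FAP, DCN and LUM in shCtrl) lie near background, where a change is measured poorly.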
